A study of Mus musculus with 20 samples.

Results

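The genes described are those of cell division and DNA replication: 51 genes listed by name, of which the 48 with a mean of at least 1 CPM (counts scaled to the library's total) over the 20 libraries are the members, out of 78409 genes in the deposited table and 13077 genes at that level. They fall into 4 roles: mitosis (22 members of 25 listed), cyclins and Cdk1 (8 of 8), DNA replication (14 of 14) and inhibitors of cyclin-dependent kinases (CDKs; 4 of 4). The 3 listed genes below the limit were Cenpm (0.103 CPM), Kif2c (0.742) and Plk1 (0.80), and the members just above it were Cdc6 (1.15), Ttk (1.16) and Bub1b (1.23).

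Polyadenylated RNA was measured at its 3′ end, with unique molecular identifiers, in bone marrow-derived macrophages (BMDMs) of female C57BL/6J mice. The BMDMs of every group were wild type. They were grown for 5 days with 20% medium conditioned by L929 fibroblasts, a source of the growth factor M-CSF, seeded on day 6 at 200000 cells per well without that supplement, and on day 7 washed 3 times and treated in Opti-MEM without serum. Treatments were PBS, or fractions of bronchoalveolar lavage fluid (BALF) from mice with airway inflammation induced by ovalbumin (OVA), separated by size exclusion into a fraction enriched in extracellular vesicles (EVFx) and a fraction enriched in protein (ProteinFx).

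Each of the 5 groups had 4 libraries, all of a single batch. PBS was the control, without airway fluid. RNY1+/+ EVFx and RNY1-/- EVFx were given at 35000000 particles per µL, from BALF of mice with an intact or a deleted RNY1 gene, which encodes a small noncoding Y RNA. RNY1+/+ ProteinFx and RNY1-/- ProteinFx were given at 0.75 µg of protein per µL. All 4 fractions had been kept at 4 °C for 5 days before use. The genotype is that of the fluid's donors, so the deletion cannot be seen in the macrophage libraries. The knockout was made with CRISPR, and mice of the study were 7 to 16 weeks old. The text of the sources states neither how long the treatment lasted nor what the 4 libraries of a group were. They could be separate wells, mice or pools of fluid, so the p-values measure the spread between libraries. Library totals ran from 2510005 to 8277366 counts, at which 1 count equals 0.398 down to 0.121 CPM.

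In a dividing cell, D-type cyclins and then E-type cyclins activate CDKs, which free E2F factors to switch on genes of DNA replication. The MCM helicase is loaded on chromatin and opened for copying, and cyclin A, cyclin B and Cdk1 then drive mitosis, with kinetochore, spindle and cytokinesis proteins. CDK inhibitors of the Cip/Kip family (Cdkn1a, Cdkn1b, Cdkn1c) and the INK4 family (Cdkn2b, Cdkn2c) hold these steps back. M-CSF keeps BMDMs dividing, and its removal or inflammatory activation takes them out of the cycle. In bulk RNA, fewer cells with a transcript and less of it per cell cannot be told apart.

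The label macrophage was checked against marker genes. Of 14 macrophage markers 13 had a mean of at least 3 CPM, the most abundant being Lyz2 (lysozyme, 5598 CPM), and the exception was Cd163 (0.346 CPM). Their summed level was 16484, 16915, 11428 and 14938 CPM in PBS libraries 1 to 4, 10407, 10767, 9550 and 11106 with RNY1+/+ EVFx, and 10483, 10255, 9243 and 9717 with RNY1-/- EVFx. It was 12740, 11994, 12397 and 12510 CPM with RNY1+/+ ProteinFx and 14374, 14437, 12036 and 13791 with RNY1-/- ProteinFx. Both EVFx groups therefore lay below every PBS library. Of the eosinophil and mast cell markers, Epx, Fcer1a, Il5ra and Mcpt4 were at 0 in every library, but Ccr3 had a mean of 7.93 CPM. Sftpc of lung epithelium and the erythroid factor Gata1 were at 0 as well.

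A library of PBS and a pair of RNY1-/- ProteinFx libraries stood apart from the rest of their groups. PBS library 3 had a summed level of 2333 CPM over the 48 members, against 1850, 1880 and 1864 in PBS libraries 1, 2 and 4, but without Pcna, taken out after the values were seen, the sums were 1274, 1287, 1275 and 1129 in libraries 1 to 4. These sums include Cdkn1a, an inhibitor, at 335, 339, 149 and 241 CPM in that order. Library 3 was still the highest in the mitosis sum (198, 212, 310 and 202 CPM). The same held for the replication sum without Pcna (255, 283, 305 and 260 CPM). Mki67, the proliferation antigen, was at 25.4 CPM in PBS library 3 and at 9.80, 11.4 and 10.8 in the others. Over all genes, the mean squared difference between 2 libraries in units of counting error (1 where counting is the only error) was 2.30 for PBS libraries 1 and 2, and 31.5, 34.7 and 16.8 between library 3 and libraries 1, 2 and 4. With RNY1-/- ProteinFx the same measure was 3.49 between libraries 1 and 2 and 2.57 between 3 and 4, but 13.3 to 15.7 across those pairs. Mitochondrial genes held 5.58% to 7.32% of counts with PBS, 3.80% to 4.99% with RNY1+/+ EVFx, 5.41% to 6.14% with RNY1-/- EVFx, 4.75% to 5.32% with RNY1+/+ ProteinFx and 4.86% to 5.93% with RNY1-/- ProteinFx. The part of these differences in the results was not tested, beyond the values given without the libraries concerned.

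**Figure D1:**
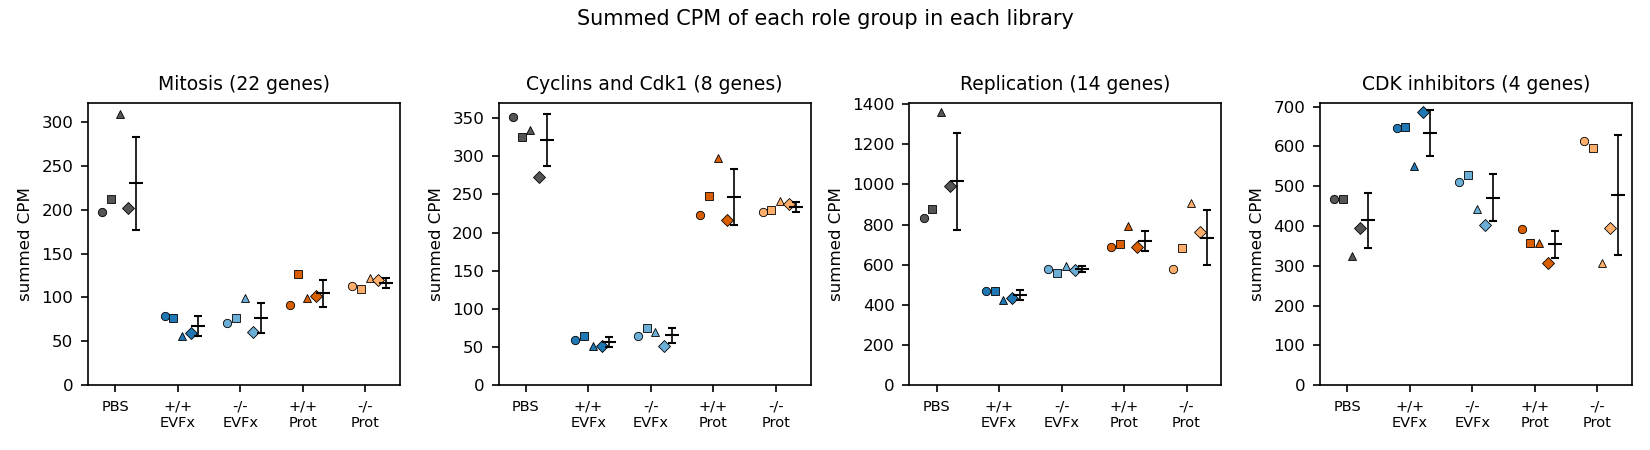
Summed CPM of the members of each role, 1 panel a role, for the 5 treatment groups on the horizontal axis (Prot, ProteinFx). Points are libraries 1 to 4 (circle, square, triangle, diamond), and the bar beside them is the mean with its SD (n = 4); the mitosis sum lay between 198 and 310 with PBS and between 56.1 and 127 in the 16 libraries given airway fluid.

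Macrophages given any airway fluid fraction had a lower sum of the 22 mitosis members than macrophages given PBS, in every library. Summed over the 22 mitosis genes, PBS libraries 1 to 4 held 198, 212, 310 and 202 CPM. The sums were 78.8, 76.2, 56.1 and 59.7 CPM with RNY1+/+ EVFx and 70.5, 76.1, 99.6 and 60.1 with RNY1-/- EVFx. With RNY1+/+ ProteinFx they were 91.6, 127, 98.9 and 102 CPM, and with RNY1-/- ProteinFx 113, 110, 122 and 120. No library given airway fluid reached the lowest PBS library. Sums over the 14 replication genes were 831, 876, 1362 and 994 CPM with PBS and also lower in 15 of the 16 other libraries, RNY1-/- ProteinFx library 3 (909 CPM) lying among the PBS libraries. Pcna alone made up most of these sums, and was at 709 CPM in that library. Without Pcna, a sum added after the values were seen, the other 13 replication genes held 255, 283, 305 and 260 CPM with PBS and 104 to 202 in the 16 other libraries. In mitosis sums, ProteinFx libraries lay above EVFx libraries, except that RNY1+/+ ProteinFx libraries 1 and 3 were below RNY1-/- EVFx library 3. Over 81 other mitosis genes, outside the members, the sums were 777, 802, 1089 and 817 CPM with PBS. They were 610 to 671 with RNY1+/+ EVFx and 692 to 777 with RNY1-/- EVFx. With RNY1+/+ ProteinFx they were 739 to 843 and with RNY1-/- ProteinFx 830 to 976, so both ProteinFx groups overlapped PBS there. Abundant genes weigh most in these sums, Smc4 (a mean of 177 CPM) the most, so the sums say little of genes at a few CPM.

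Genes were tested with edgeR against the 4 PBS libraries that the comparisons share, and the members called as differentially expressed genes (DEGs; adjusted p under 0.05 and a log2 fold change beyond 1 either way) were mostly falls. With RNY1+/+ EVFx, 37 of 48 members were tested (a mean of at least 3 CPM in the libraries compared), and 21 fell and 1 rose, while of all genes tested 8.19% fell and 8.24% rose. With RNY1-/- EVFx, 18 of 37 fell and 0 rose, beside 13.5% and 9.01% of all genes. With RNY1+/+ ProteinFx, 15 of 38 fell and 2 rose, beside 12.4% and 8.96%. With RNY1-/- ProteinFx, 15 of 40 fell and 1 rose, beside 7.99% and 6.31%. Without the fold limit 31, 29, 25 and 23 members had an adjusted p under 0.05 with RNY1+/+ EVFx, RNY1-/- EVFx, RNY1+/+ ProteinFx and RNY1-/- ProteinFx, beside 44.5%, 58.3%, 55.2% and 35.7% of all genes tested. The median log2 fold change of the members tested was -1.13, -0.95, -0.78 and -0.74 in that order, and over all genes tested it was -0.03 in each comparison.

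The members that were not tested had low levels, and members could pass that limit through PBS alone, so the shares above are not shares of the 48. Over the 48 members, every library was below every PBS library for 41 with RNY1+/+ EVFx, 41 with RNY1-/- EVFx, 32 with RNY1+/+ ProteinFx and 27 with RNY1-/- ProteinFx. Among the 13077 genes with a mean of at least 1 CPM, the same held for 27.2%, 34.0%, 28.8% and 16.1%. Without PBS library 3, the members called numbered 19, 15, 13 and 13 in the same order. Scaling to library totals in place of TMM moved the median of all genes from -0.03 to -0.21 with RNY1+/+ EVFx, -0.27 with RNY1-/- EVFx, -0.20 with RNY1+/+ ProteinFx and -0.10 with RNY1-/- ProteinFx. The split of all genes into rises and falls then went from 890 and 884 to 738 and 1223 with RNY1+/+ EVFx, from 967 and 1449 to 698 and 2138 with RNY1-/- EVFx, and from 971 and 1340 to 774 and 1847 with RNY1+/+ ProteinFx. Removing trends with transcript length and GC content gave 636 rises and 477 falls with RNY1-/- ProteinFx, against 685 and 867 before. Members called under library totals were 0 rises and 26 falls, 0 and 23, 1 and 18, and 1 and 16, in the order RNY1+/+ EVFx, RNY1-/- EVFx, RNY1+/+ ProteinFx and RNY1-/- ProteinFx.

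**Figure D2:**
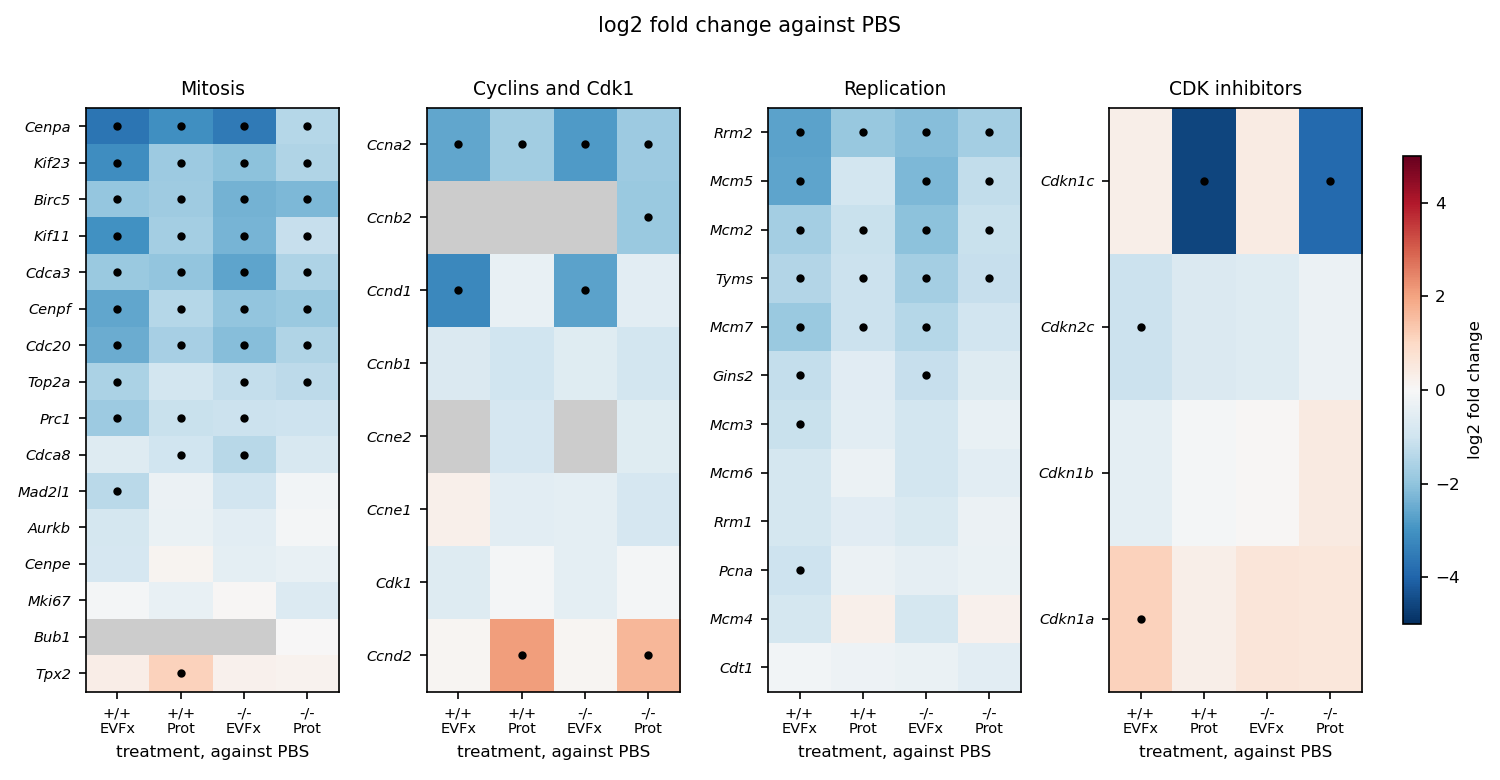
Log2 fold change against PBS (colour, from -5 to 5) of each member tested, in rows by role, in the 4 fractions (columns). A black dot marks a DEG and grey a gene not tested; Ccnd1 is at -3.21 and -2.69 with EVFx, and Cdkn1c at -4.60 and -3.90 with ProteinFx.

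Some of the mitosis members tested fell with each fraction. Of the 15 tested with RNY1+/+ EVFx 10 fell, by 1.35 to 3.66 on the log2 scale, and of the 15 tested with RNY1-/- EVFx 10 fell. With RNY1+/+ ProteinFx 9 of 15 fell and 1 rose, and with RNY1-/- ProteinFx 8 of 16 fell, beside falls of 8.19%, 13.5%, 12.4% and 7.99% of all genes in the same order. Of those called with RNY1+/+ EVFx, Kif11, Cdc20, Cenpf, Prc1, Birc5, Cdca3 and Kif23 passed the 3 CPM limit through PBS. Their means with that fraction ran from 0.646 to 1.82 CPM. The counts depend on that limit and are no test against the share of all genes. Cenpa, Birc5, Cdc20, Cdca3, Cenpf, Kif11 and Kif23 fell in all 4 comparisons. Cenpa is the histone H3 variant that marks centromeres, Birc5 (survivin) belongs to the chromosomal passenger complex, Cdc20 activates the anaphase-promoting complex, and Kif11 and Kif23 are spindle and midzone motors.

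Cenpa, encoding the centromeric histone, was at 45.3, 49.7, 45.1 and 48.4 CPM in PBS libraries 1 to 4. It was at 3.36, 4.75, 2.00 and 2.66 CPM with RNY1+/+ EVFx and at 3.81, 3.72, 4.68 and 1.68 with RNY1-/- EVFx. With RNY1+/+ ProteinFx it was at 4.79, 5.32, 4.65 and 5.21 CPM, and with RNY1-/- ProteinFx at 21.2, 19.9, 11.2 and 13.5. The RNY1-/- ProteinFx libraries therefore lay between PBS and the 3 other fractions, with no overlap, and its libraries 1 and 2 were above 3 and 4. The log2 fold changes against PBS were -3.66 ± 0.20 (SE; adjusted p = 1.0e-07) with RNY1+/+ EVFx and -3.54 ± 0.20 (1.4e-07) with RNY1-/- EVFx. They were -3.07 ± 0.13 (8.8e-09) with RNY1+/+ ProteinFx and -1.43 ± 0.17 (1.7e-04) with RNY1-/- ProteinFx.

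Top2a, the topoisomerase that untangles sister chromatids, was at 20.3, 21.7, 34.8 and 18.2 CPM with PBS, 9.05, 7.88, 5.41 and 4.95 with RNY1+/+ EVFx and 7.22, 7.94, 14.7 and 5.72 with RNY1-/- EVFx. Libraries of RNY1+/+ ProteinFx held 9.76, 14.2, 11.6 and 9.20 CPM, and those of RNY1-/- ProteinFx 10, 7.55, 10.8 and 8.56. PBS library 3 was the highest of the 20, and every library given a fraction was below every PBS library. Top2a fell with RNY1+/+ EVFx (log2 fold change -1.60 ± 0.25, adjusted p = 3.9e-04), with RNY1-/- EVFx (-1.21 ± 0.28, 0.00348) and with RNY1-/- ProteinFx (-1.31 ± 0.23, 0.00193). With RNY1+/+ ProteinFx its value of -0.92 ± 0.22 (adjusted p = 0.00446) was within the fold limit, but a DEG under library totals (-1.09) and with length and GC trends removed (-1.33). Without PBS library 3 the value with RNY1-/- EVFx was -0.98 and no longer a DEG.

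Mad2l1, a spindle checkpoint protein, was at 18, 18.7, 29.2 and 22.7 CPM with PBS, 8.53, 8.32, 7.61 and 6.28 with RNY1+/+ EVFx and 11.3, 8.79, 10.7 and 8.08 with RNY1-/- EVFx. It was at 16.5, 17, 15.2 and 16 CPM with RNY1+/+ ProteinFx and at 16.1, 16.4, 22.3 and 23.7 with RNY1-/- ProteinFx. Every EVFx library was below every PBS and every ProteinFx library, while RNY1-/- ProteinFx overlapped PBS. Mad2l1 fell with RNY1+/+ EVFx (log2 fold change -1.35 ± 0.19, adjusted p = 1.6e-04). The values with RNY1-/- EVFx (-0.95 ± 0.19, adjusted p = 0.00121), RNY1+/+ ProteinFx (-0.28 ± 0.17, 0.168) and RNY1-/- ProteinFx (-0.12 ± 0.21, 0.677) were not DEGs. Under library totals RNY1-/- EVFx gave a DEG (-1.19), and the ProteinFx values were -0.45 (adjusted p = 0.0379) and -0.19 (0.475). Removing length and GC trends gave a DEG as well (-1.35), and moved RNY1+/+ and RNY1-/- ProteinFx to -0.76 (adjusted p = 7.2e-05) and -0.52 (0.00461).

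Among the other mitosis genes, Kif23 fell by 3.12 ± 0.33 on the log2 scale with RNY1+/+ EVFx, from a mean of 17.9 ± 7.05 CPM (SD, n = 4) to 1.82 ± 0.642. Cdc20 fell by 2.47 ± 0.29 with the same fraction, from 7.25 ± 1.84 to 1.08 ± 0.398 CPM. Tpx2, a spindle assembly factor that activates aurora A, was the mitosis gene that rose: its level was 6.89, 12.7, 11.1 and 15.6 CPM with RNY1+/+ ProteinFx and 5.74, 5.41, 7.78 and 4.98 with PBS. Library 1 of RNY1+/+ ProteinFx lay among the PBS libraries, so the groups overlapped. The rise of 1.14 ± 0.26 (adjusted p = 0.00344) was not a DEG under library totals or with length and GC trends removed. Mki67 was not a DEG in any of the 4 comparisons with PBS, although PBS library 3 alone was at 25.4 CPM.

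**Figure D3:**
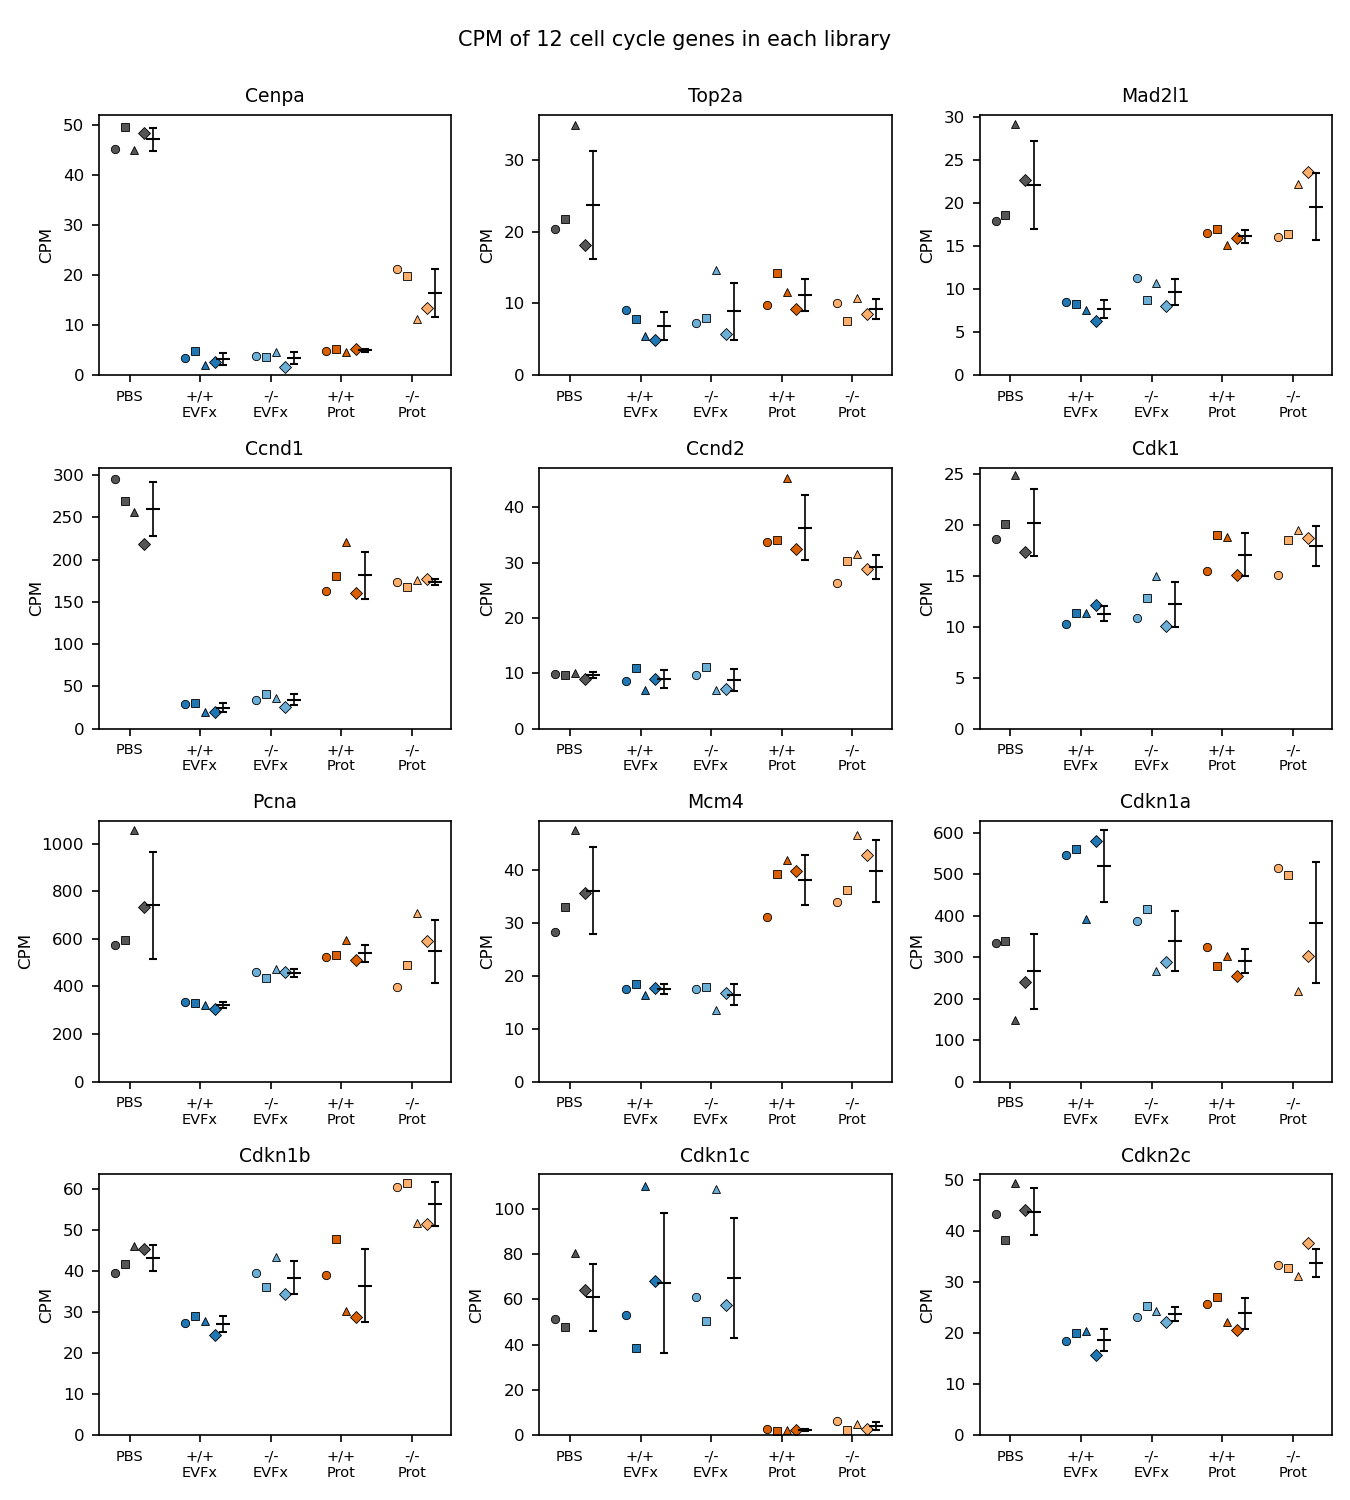
CPM of 12 members in each library, 1 panel a gene, for the 5 treatment groups (Prot, ProteinFx), with libraries 1 to 4 as circle, square, triangle and diamond and the mean with its SD beside them (n = 4). Ccnd1 lies between 19.8 and 41.4 CPM in the 8 EVFx libraries and between 160 and 295 in the other 12, and Cdkn1c between 1.77 and 6.23 in the 8 ProteinFx libraries.

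A pair of D-type cyclins separated the fractions at the doses given. Ccnd1 (cyclin D1) fell with EVFx from both genotypes, and Ccnd2 (cyclin D2) rose with ProteinFx from both. Ccnd3 (cyclin D3), outside the members and named after its values were seen, did not separate them: it was at 4.48 ± 2.38 CPM with PBS, 3.38 ± 0.177 and 1.76 ± 0.661 with RNY1+/+ and RNY1-/- EVFx, and 2.32 ± 0.976 and 1.70 ± 0.571 with RNY1+/+ and RNY1-/- ProteinFx (SD, n = 4), a DEG with both RNY1-/- fractions, though with RNY1-/- ProteinFx it overlapped PBS and was not called with length and GC trends removed (-0.85, adjusted p = 0.0617). Ccna2, the cyclin of S phase and early mitosis, fell in all 4 comparisons with PBS, by 2.61 ± 0.30, 2.83 ± 0.43, 1.73 ± 0.29 and 1.80 ± 0.28 on the log2 scale with RNY1+/+ EVFx, RNY1-/- EVFx, RNY1+/+ ProteinFx and RNY1-/- ProteinFx. Its means were 1.36, 1.16, 2.47 and 2.53 CPM in that order and 9.30 with PBS, so it passed the 3 CPM limit through PBS.

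Ccnd1 was at 295, 270, 256 and 219 CPM with PBS, 29.2, 30.1, 19.8 and 19.8 with RNY1+/+ EVFx, and 34.3, 41.4, 36.1 and 25.2 with RNY1-/- EVFx. The level with RNY1+/+ ProteinFx was 163, 181, 221 and 160 CPM, and with RNY1-/- ProteinFx 173, 168, 176 and 177. The EVFx libraries were far below every other library, and RNY1+/+ ProteinFx library 3 overlapped PBS library 4. The log2 fold changes were -3.21 ± 0.17 (adjusted p = 1.0e-07) with RNY1+/+ EVFx and -2.69 ± 0.15 (1.1e-07) with RNY1-/- EVFx. With RNY1+/+ ProteinFx and RNY1-/- ProteinFx they were -0.36 ± 0.13 (adjusted p = 0.0357) and -0.52 ± 0.12 (0.00834), within the fold limit.

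Ccnd2 was at 9.84, 9.73, 10.1 and 8.90 CPM with PBS, 8.66, 11, 7.01 and 8.94 with RNY1+/+ EVFx, and 9.72, 11.2, 7.02 and 7.07 with RNY1-/- EVFx. With RNY1+/+ ProteinFx it was at 33.7, 34.0, 45.2 and 32.4 CPM, and with RNY1-/- ProteinFx at 26.3, 30.2, 31.5 and 28.8. Every ProteinFx library was above every other library, and the EVFx and PBS libraries overlapped. Ccnd2 rose by 2.08 ± 0.15 (adjusted p = 5.0e-07) with RNY1+/+ ProteinFx and by 1.66 ± 0.14 (1.1e-05) with RNY1-/- ProteinFx on the log2 scale. The values with EVFx were 0.08 ± 0.16 (adjusted p = 0.729) for RNY1+/+ and 0.11 ± 0.18 (0.613) for RNY1-/-, and under library totals -0.10 and -0.13.

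Cdk1, the kinase that drives entry into mitosis, was at 18.6, 20.1, 24.9 and 17.4 CPM with PBS, 10.3, 11.4, 11.4 and 12.1 with RNY1+/+ EVFx, and 10.9, 12.8, 15 and 10.1 with RNY1-/- EVFx. Libraries of RNY1+/+ ProteinFx held 15.5, 19, 18.8 and 15.1 CPM, and those of RNY1-/- ProteinFx 15.1, 18.5, 19.5 and 18.7. Every EVFx library was below every PBS library and the ProteinFx libraries overlapped PBS, but Cdk1 was not a DEG. Its log2 fold changes were -0.66 ± 0.14 (adjusted p = 0.00301) with RNY1+/+ EVFx, -0.50 ± 0.16 (0.0187) with RNY1-/- EVFx, -0.08 ± 0.15 (0.675) with RNY1+/+ ProteinFx and -0.11 ± 0.16 (0.604) with RNY1-/- ProteinFx. The ProteinFx values became -0.25 and -0.18 under library totals, and -0.22 and -0.24 without length and GC trends, with adjusted p from 0.190 to 0.397.

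The E-type cyclins, which act at the entry into S phase, were at low levels. Ccne1 was at 6.56, 3.55, 3.20 and 3.20 CPM with PBS, 4.14, 4.00, 4.40 and 4.83 with RNY1+/+ EVFx, and 3.02, 2.68, 1.48 and 2.52 with RNY1-/- EVFx. With ProteinFx it was at 1.53, 2.79, 3.27 and 2.78 CPM (RNY1+/+) and 2.08, 2.52, 1.20 and 2.59 (RNY1-/-). PBS library 1 stood above the other PBS libraries, RNY1+/+ EVFx overlapped PBS, and Ccne1 was not a DEG in any comparison. Ccne2 was at 3.07, 3.09, 9.15 and 3.20 CPM with PBS, 0.388, 0.876, 1.00 and 0.725 with RNY1+/+ EVFx, and 1.31, 0.596, 1.23 and 2.02 with RNY1-/- EVFx. With ProteinFx it was at 1.91, 3.80, 2.01 and 1.39 CPM (RNY1+/+) and 2.27, 2.52, 4.78 and 2.59 (RNY1-/-). Each EVFx library was below each PBS library, but the mean over those 8 libraries was under 3 CPM and Ccne2 was not tested there; PBS library 3 was the highest by far. Against PBS its values with ProteinFx were -0.85 ± 0.44 (adjusted p = 0.121) for RNY1+/+ and -0.59 ± 0.43 (0.291) for RNY1-/-, but with length and GC trends removed both were DEGs (adjusted p = 0.00673 and 0.0240), the former at -1.34.

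Of the 12 replication genes tested, 8 fell with RNY1+/+ EVFx, 6 with RNY1-/- EVFx, 4 with RNY1+/+ ProteinFx and 4 with RNY1-/- ProteinFx, beside 8.19%, 13.5%, 12.4% and 7.99% of all genes, and 0 rose in the 4 comparisons. Rrm2 (the regulated subunit of ribonucleotide reductase), Tyms (thymidylate synthase) and Mcm2 (of the replicative helicase) fell in each of them. Rrm2 went from 14.6 ± 4.18 CPM (SD, n = 4) with PBS to 1.94 ± 0.405, 2.98 ± 1.49, 3.40 ± 0.484 and 4.49 ± 1.06 with RNY1+/+ EVFx, RNY1-/- EVFx, RNY1+/+ ProteinFx and RNY1-/- ProteinFx. Mcm5 fell by 2.63 ± 0.25 with RNY1+/+ EVFx, 2.26 ± 0.26 with RNY1-/- EVFx and 1.23 ± 0.22 with RNY1-/- ProteinFx on the log2 scale. The means of Mcm5, Rrm2, Tyms and Mcm7 with RNY1+/+ EVFx were 1.07, 1.94, 2.47 and 2.79 CPM. They passed the 3 CPM limit through PBS, and the counts of replication genes depend on that limit.

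Pcna, the sliding clamp of DNA polymerases, was at 576, 593, 1057 and 734 CPM with PBS, 333, 331, 322 and 306 with RNY1+/+ EVFx, and 460, 434, 474 and 460 with RNY1-/- EVFx. It was at 522, 531, 593 and 511 CPM with RNY1+/+ ProteinFx and at 399, 492, 709 and 590 with RNY1-/- ProteinFx. PBS library 3 stood highest, the EVFx libraries lay below every PBS library, and both ProteinFx groups overlapped PBS. Pcna fell with RNY1+/+ EVFx (log2 fold change -1.02 ± 0.18, adjusted p = 7.9e-04), but without PBS library 3 the value was -0.80 and not a DEG. Its values were -0.45 ± 0.17 (adjusted p = 0.0436) with RNY1-/- EVFx, -0.29 ± 0.17 (0.180) with RNY1+/+ ProteinFx and -0.35 ± 0.23 (0.246) with RNY1-/- ProteinFx. Library totals moved RNY1-/- EVFx to -0.69 (adjusted p = 0.00530) and RNY1+/+ ProteinFx to -0.46 (0.0454), and removing length and GC trends moved RNY1+/+ and RNY1-/- ProteinFx to -0.49 (0.0174) and -0.55 (0.0479).

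Mcm4, another helicase subunit, was at 28.3, 33.1, 47.6 and 35.6 CPM with PBS, 17.5, 18.5, 16.4 and 17.8 with RNY1+/+ EVFx, and 17.5, 18, 13.5 and 16.8 with RNY1-/- EVFx. The level with RNY1+/+ ProteinFx was 31.2, 39.3, 42.0 and 39.9 CPM, and with RNY1-/- ProteinFx 34.0, 36.2, 46.6 and 42.8. EVFx libraries lay below every PBS and ProteinFx library, and ProteinFx overlapped PBS. The values of -0.86 ± 0.16 (adjusted p = 0.00105) with RNY1+/+ EVFx and -0.87 ± 0.17 (0.00113) with RNY1-/- EVFx were within the fold limit, and beyond it under library totals (-1.04 and -1.12) or with length and GC trends removed (for RNY1-/- EVFx -1.13). With RNY1+/+ ProteinFx and RNY1-/- ProteinFx they were 0.25 ± 0.16 (adjusted p = 0.216) and 0.21 ± 0.18 (0.376), and both turned to -0.06 once those trends were removed.

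Cdt1, which loads the MCM helicase, was at 51.4, 54.1, 43.7 and 51.8 CPM with PBS, 39.6, 45.7, 31.2 and 43.3 with RNY1+/+ EVFx, and 36.0, 39.0, 30.3 and 30.8 with RNY1-/- EVFx. It was at 38.3, 36.2, 43.5 and 34.0 CPM with RNY1+/+ ProteinFx and at 42.5, 34.0, 34.3 and 23.9 with RNY1-/- ProteinFx. RNY1+/+ EVFx overlapped PBS, while the other 3 groups lay below it. Cdt1 was not a DEG, with log2 fold changes of -0.15 ± 0.13 (adjusted p = 0.374) and -0.32 ± 0.12 (0.0356) with RNY1+/+ and RNY1-/- EVFx, and -0.24 ± 0.12 (0.107) and -0.52 ± 0.16 (0.0303) with RNY1+/+ and RNY1-/- ProteinFx. With length and GC trends removed, RNY1-/- EVFx and RNY1+/+ ProteinFx turned to 0.16 (adjusted p = 0.296) and 0.24 (0.134), and RNY1-/- ProteinFx went to -0.07 (0.784). Library totals made the falls larger, at -0.33 (adjusted p = 0.0614) and -0.56 (0.00229) with RNY1+/+ and RNY1-/- EVFx and -0.41 (0.0135) with RNY1+/+ ProteinFx.

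The 4 CDK inhibitors did not move as a group. Against PBS, Cdkn1a rose and Cdkn2c fell with RNY1+/+ EVFx, Cdkn1c fell with both ProteinFx fractions, and Cdkn1b was not a DEG.

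Cdkn1a (p21), a target of p53, was at 335, 339, 149 and 241 CPM with PBS, 547, 560, 393 and 580 with RNY1+/+ EVFx, and 387, 416, 266 and 288 with RNY1-/- EVFx. Libraries of RNY1+/+ ProteinFx held 326, 280, 302 and 256 CPM, and those of RNY1-/- ProteinFx 515, 498, 219 and 303. RNY1+/+ EVFx was above every PBS library, the other 3 groups overlapped PBS, and PBS library 3 was the lowest of the 20. Cdkn1a rose by 1.14 ± 0.23 (adjusted p = 0.00217) with RNY1+/+ EVFx on the log2 scale. Without PBS library 3 the value was 0.94, and under library totals 0.97, both short of a DEG. The values were 0.59 ± 0.24 (adjusted p = 0.0529) with RNY1-/- EVFx, 0.29 ± 0.22 (0.263) with RNY1+/+ ProteinFx and 0.58 ± 0.30 (0.148) with RNY1-/- ProteinFx. In the same order they were 0.97 (adjusted p = 1.4e-04), 0.68 (6.1e-04) and 0.92 (0.00170) with length and GC trends removed, and under library totals the first pair fell to 0.35 (0.231) and 0.13 (0.640).

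Cdkn1b (p27), which binds cyclin-CDK complexes, was at 39.6, 41.7, 46.2 and 45.4 CPM with PBS, 27.4, 29.0, 27.8 and 24.5 with RNY1+/+ EVFx, and 39.5, 36.2, 43.6 and 34.5 with RNY1-/- EVFx. It was at 39.2, 47.9, 30.2 and 28.8 CPM with RNY1+/+ ProteinFx and at 60.5, 61.7, 51.8 and 51.6 with RNY1-/- ProteinFx. RNY1+/+ EVFx was below every PBS library and RNY1-/- ProteinFx above, and the other groups overlapped PBS. The log2 fold changes were -0.49 ± 0.11 (adjusted p = 0.00340) and 0.45 ± 0.11 (0.0106) with RNY1+/+ EVFx and RNY1-/- ProteinFx, and 0.07 ± 0.11 (0.615) and -0.08 ± 0.16 (0.686) with RNY1-/- EVFx and RNY1+/+ ProteinFx. With length and GC trends removed the rise with RNY1-/- ProteinFx was 0.10 (adjusted p = 0.544), and RNY1-/- EVFx and RNY1+/+ ProteinFx were at -0.32 (0.0154) and -0.53 (0.00810). Under library totals the last pair stood at -0.17 (0.214) and -0.25 (0.216).

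Cdkn1c (p57), an imprinted gene, was at 51.4, 47.9, 80.5 and 64.2 CPM with PBS, 52.9, 38.3, 110 and 68.0 with RNY1+/+ EVFx, and 61.2, 50.5, 109 and 57.7 with RNY1-/- EVFx. With RNY1+/+ ProteinFx it was at 2.49, 1.77, 2.01 and 2.43 CPM, and with RNY1-/- ProteinFx at 6.23, 2.38, 4.78 and 2.59. Every ProteinFx library was far below every other library, and library 3 was the highest of PBS and of each EVFx group. Cdkn1c fell by 4.60 ± 0.23 (adjusted p = 2.6e-08) with RNY1+/+ ProteinFx and by 3.90 ± 0.30 (5.7e-06) with RNY1-/- ProteinFx on the log2 scale. With EVFx the values were 0.31 ± 0.29 (adjusted p = 0.413) for RNY1+/+ and 0.42 ± 0.24 (0.151) for RNY1-/-. They were 0.14 and 0.18 under library totals, and RNY1-/- EVFx was at 0.95 (adjusted p = 0.0349) with length and GC trends removed.

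Cdkn2c (p18), an inhibitor of the kinases bound to D-type cyclins, was at 43.4, 38.3, 49.4 and 44.0 CPM with PBS, 18.5, 20.0, 20.4 and 15.6 with RNY1+/+ EVFx, and 23.2, 25.3, 24.3 and 22.2 with RNY1-/- EVFx. It was at 25.6, 27.1, 22.1 and 20.5 CPM with RNY1+/+ ProteinFx and at 33.4, 32.7, 31.1 and 37.6 with RNY1-/- ProteinFx. Every library given a fraction was below every PBS library. Cdkn2c fell with RNY1+/+ EVFx (log2 fold change -1.06 ± 0.13, adjusted p = 6.3e-05), and without RNY1+/+ EVFx library 4 the value was -0.97, within the fold limit. The values were -0.64 ± 0.11 (adjusted p = 6.1e-04) with RNY1-/- EVFx, -0.71 ± 0.13 (9.2e-04) with RNY1+/+ ProteinFx and -0.31 ± 0.13 (0.0876) with RNY1-/- ProteinFx. With length and GC trends removed they were -0.17 (adjusted p = 0.514), -0.24 (0.395) and 0.15 (0.678), so only the fall with RNY1+/+ EVFx kept an adjusted p under 0.05.

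The comparison of ProteinFx with EVFx from mice of the same genotype asks how the fractions differ at the doses given, without the PBS libraries. EVFx was dosed by particles and ProteinFx by protein, so fraction and dose cannot be told apart. Ccnd1, Ccnd2 and Mcm4 were higher with ProteinFx in both genotypes and Cdkn1c was lower. With RNY1+/+ fluid 6 of the 27 members tested were higher and 1 lower with ProteinFx than with EVFx, beside 6.71% and 6.82% of all genes. With RNY1-/- fluid 4 of 27 were higher and 1 lower, beside 4.82% and 4.15% of all genes. Without the fold limit 22 and 12 had an adjusted p under 0.05, beside 63.3% and 29.2% of all genes. The median of the members tested was 0.58 and 0.41 on the log2 scale, and of all genes -0.02 and 0.01. For RNY1-/- fluid, library totals moved the median of all genes to 0.19, and the split of all genes from 502 higher and 432 lower to 710 and 322.

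For RNY1+/+ fluid the log2 fold changes of ProteinFx against EVFx were 2.86 ± 0.14 for Ccnd1 (adjusted p = 6.7e-10), 2.00 ± 0.14 for Ccnd2 (2.9e-08), 1.11 ± 0.11 for Mcm4 (8.1e-07) and -4.89 ± 0.37 for Cdkn1c (4.7e-08). The others called were Kif23 (1.32 ± 0.30, adjusted p = 0.00130), Mad2l1 (1.07 ± 0.14, 9.2e-06) and Cenpe, a kinetochore motor (1.00 ± 0.24, 0.00202). Mcm4, Mad2l1 and Cenpe were no longer DEGs with length and GC trends removed, at 0.95, 0.58 and 0.62, and without RNY1+/+ EVFx library 4 Mad2l1 stood at 0.97. For RNY1-/- fluid the values were 2.17 ± 0.13 for Ccnd1 (adjusted p = 1.4e-07), 1.54 ± 0.16 for Ccnd2 (1.5e-05), 1.07 ± 0.15 for Mcm4 (1.7e-04), 2.12 ± 0.26 for Cenpa (5.4e-05) and -4.33 ± 0.33 for Cdkn1c (1.0e-06). Without RNY1-/- ProteinFx library 3 Mcm4 was at 1.00, and without libraries 3 and 4 at 0.87, neither a DEG. In the values above, no ProteinFx library of Ccnd1, Ccnd2, Mcm4 or Cdkn1c overlapped an EVFx library.

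The genotype of the donor mice was compared within each fraction, to ask what the loss of RNY1 in the fluid changes in the cells. In EVFx, 0 of 26 members tested were higher and 0 lower with RNY1-/- than with RNY1+/+ by edgeR, beside 0.378% and 1.98% of all genes, and DESeq2 also called 0. Without the fold limit 8 of the 26 had an adjusted p under 0.05, beside 52.1% of all genes tested. The values were 0.57 ± 0.07 for Pcna (adjusted p = 2.0e-04), 0.56 ± 0.09 for Cdkn1b (4.7e-04), 0.52 ± 0.16 for Ccnd1 (0.0150), 0.43 ± 0.10 for Cdkn2c (0.00464) and 0.40 ± 0.15 for Mad2l1 (0.0416). They were -0.55 ± 0.14 for Cdkn1a (0.00667), -0.71 ± 0.21 for Ccne1 (0.0134) and -0.73 ± 0.27 for Cdca8, a chromosomal passenger protein (0.0385). For 3 of the 48 members, Pcna, Cdkn1b and Cdkn2c, every RNY1-/- library was above every RNY1+/+ library, and for 1, Ccne1, below, beside 15% and 23% of the 13077 genes with a mean of at least 1 CPM. Kif23, singled out after its values were seen and too low for the 3 CPM limit here, was at 1.36, 2.75, 1.70 and 1.45 CPM with RNY1+/+ EVFx and 2.76, 4.62, 4.93 and 2.52 with RNY1-/- EVFx, and with filterByExpr alone its log2 fold change of 1.06 was a DEG.

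GC content of the transcript went with the log2 fold change in most comparisons. In the EVFx genotype comparison the correlation was -0.64 over 10019 genes, which are not independent replicates. It was 0.12 for genotype in ProteinFx and 0.55 for the interaction, -0.06, -0.33, -0.35 and -0.40 against PBS with RNY1+/+ EVFx, RNY1-/- EVFx, RNY1+/+ ProteinFx and RNY1-/- ProteinFx, and -0.41 and 0.02 for ProteinFx against EVFx of RNY1+/+ and RNY1-/- fluid. In the EVFx genotype comparison with length and GC trends removed, all genes called went from 39 higher and 204 lower to 69 and 45. For members the values then were 0.45 for Pcna (adjusted p = 3.3e-04), 0.31 for Cdkn1b (0.0128), 0.68 for Ccnd1 (0.00504), 0.95 for Cdkn2c (4.3e-04), -0.02 for Mad2l1 (0.945), -0.17 for Cdkn1a (0.289), -0.42 for Ccne1 (0.14) and -0.73 for Cdca8 (0.0463).

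In ProteinFx, Cenpa was the member called by donor genotype. It was higher with RNY1-/- than with RNY1+/+ fluid, 16.4 ± 4.85 against 4.99 ± 0.324 CPM (SD, n = 4), with no overlap. Of 29 members tested 1 was higher and 0 lower, beside 0.659% and 1.17% of all genes. Its log2 fold change of 1.67 ± 0.21 (adjusted p = 5.6e-04) was a DEG in every alternative run, RNY1-/- ProteinFx libraries 1 and 2 or 3 and 4 left out among them, with values from 1.29 to 1.90. Without the fold limit 2 members had an adjusted p under 0.05, beside 5.57% of all genes, the other being Tpx2 at -0.94 ± 0.25 (adjusted p = 0.0411). Every RNY1-/- library was above every RNY1+/+ library for 4 of the 48 members and below for 1, beside 8.33% and 4.34% of the 13077 genes. They were Cenpa, Cdkn1b (0.55 ± 0.15, adjusted p = 0.0504), Cdkn2c (0.42 ± 0.13, 0.0903) and Rrm1 (0.31 ± 0.12, 0.178), and Ccnd2 (-0.40 ± 0.14, 0.116), and Cenpa alone passed the test. Library totals moved the median of all genes from 0.02 to 0.11 and the split of all genes from 69 higher and 122 lower to 101 and 99.

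The interaction term tests whether the effect of donor genotype differs between ProteinFx and EVFx. Of 27 members tested, Cenpa alone passed, with a difference of 1.54 ± 0.38 on the log2 scale (adjusted p = 0.00778), so 1 was positive and 0 negative, beside 5.33% and 2.46% of all genes. Without the fold limit 5 of the 27 had an adjusted p under 0.05, beside 33.0% of all genes, the other 4 being Cdkn1a (0.85 ± 0.28, adjusted p = 0.0266), Cenpe (-0.90 ± 0.33, 0.0436), Ccnd1 (-0.68 ± 0.20, 0.0198) and Pcna (-0.63 ± 0.19, 0.0198). Under library totals the Cdkn1a difference was 1.02 and a DEG, and with length and GC trends removed those of Cdkn1a and Cenpe were 0.43 (adjusted p = 0.128) and -0.48 (0.230). Library totals moved the median of all genes from -0.00 to 0.16 and the split of all genes from 557 positive and 257 negative to 974 and 134, while removing length and GC trends gave 211 and 241.

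Genes of the same processes outside the members gave a mixed account. Of 81 other mitosis genes, 0 rose and 13 fell of the 33 tested with RNY1+/+ EVFx, 1 and 8 of 33 with RNY1-/- EVFx, 0 and 4 of 38 with RNY1+/+ ProteinFx, and 1 and 2 of 39 with RNY1-/- ProteinFx. Of all genes tested, in the same order, 8.24% rose and 8.19% fell, then 9.01% and 13.5%, 8.96% and 12.4%, and 6.31% and 7.99%. Genes of this and the following lists, like members, could pass the 3 CPM limit through PBS alone. Ncaph, for example, was at 1.23 CPM with RNY1+/+ EVFx and 6.06 with PBS. Ncapg2, a condensin subunit, fell by 2.24 ± 0.17 on the log2 scale with RNY1+/+ EVFx (10 ± 1.71 against 53.1 ± 9.32 CPM with PBS; SD, n = 4) and was also a DEG with RNY1-/- EVFx (19.2 ± 2.63 CPM). It rose by 1.36 ± 0.18 with RNY1-/- ProteinFx (129 ± 23.3 CPM). In the EVFx genotype comparison it was the mitosis gene of that list called, at 1.03 ± 0.14, but not at 0.82 with length and GC trends removed or at 0.96 under library totals. In the ProteinFx genotype comparison 0 of 31 were called. Of all genes, 0.378% were higher and 1.98% lower in the EVFx genotype comparison, and 0.659% and 1.17% in that of ProteinFx.

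Of 80 other replication genes, 1 rose and 16 fell of the 57 tested with RNY1+/+ EVFx, 1 and 11 of 56 with RNY1-/- EVFx, 2 and 8 of 61 with RNY1+/+ ProteinFx, and 1 and 6 of 59 with RNY1-/- ProteinFx, beside falls of 8.19%, 13.5%, 12.4% and 7.99% of all genes. Pclaf, a protein that binds PCNA, fell in each: by 4.33 ± 0.31, 4.73 ± 0.45, 3.02 ± 0.26 and 2.71 ± 0.27 on the log2 scale in the same order. Its means were 0.599, 0.449, 1.48 and 2.09 CPM in that order and 13.8 with PBS, so it passed the 3 CPM limit through PBS. Dck, the deoxycytidine kinase of nucleotide salvage, rose against that direction. Its level was 82.0 ± 20.0 CPM with PBS and 736 ± 79.5 with RNY1+/+ ProteinFx (SD, n = 4), a rise of 3.34 ± 0.17, and it rose by 2.85 ± 0.17 with RNY1-/- EVFx and by 3.30 ± 0.31 with RNY1-/- ProteinFx. With RNY1+/+ EVFx it was a DEG too, at 276 ± 27.4 CPM. In the comparison of ProteinFx with EVFx, 10 of 50 replication genes of that list were higher and 0 lower for RNY1+/+ fluid, and 6 of 49 and 0 for RNY1-/- fluid, beside 6.71% and 6.82%, and 4.82% and 4.15%, of all genes. Of the other mitosis genes 4 of 25 were higher and 0 lower for RNY1+/+ fluid, and 2 and 1 of 28 for RNY1-/- fluid. Between the donor genotypes, 0 of 45 replication genes of that list were called in EVFx and 1 of 52 in ProteinFx. Of all genes, 0.378% were higher and 1.98% lower in EVFx, and 0.659% and 1.17% in ProteinFx. The gene called was Timeless, of the replication fork. It was lower with RNY1-/- than with RNY1+/+ ProteinFx, by 1.08 ± 0.19 (adjusted p = 0.00495), but at -0.99 under library totals not a DEG.

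Of 45 cycle control genes, 1 rose and 3 fell of the 38 tested with RNY1+/+ EVFx, 5 and 5 of 38 with RNY1-/- EVFx, 2 and 2 of 37 with RNY1+/+ ProteinFx, and 1 and 2 of 37 with RNY1-/- ProteinFx. Of all genes 8.24%, 9.01%, 8.96% and 6.31% rose and 8.19%, 13.5%, 12.4% and 7.99% fell. Cdkn2b (p15), an INK4 inhibitor next to the listed Cdkn2c in function, was at 1.90 ± 0.903 CPM with PBS, 31.8 ± 6.27 with RNY1+/+ EVFx and 30.9 ± 9.50 with RNY1-/- EVFx (SD, n = 4). It rose by 4.24 ± 0.27 and 4.25 ± 0.33 on the log2 scale, and was at 0.957 ± 0.246 and 0.999 ± 0.430 CPM with RNY1+/+ and RNY1-/- ProteinFx. Tfdp2, a partner of E2F factors, fell by 2.62 ± 0.26 with RNY1+/+ EVFx, 1.89 ± 0.26 with RNY1-/- EVFx and 1.23 ± 0.26 with RNY1+/+ ProteinFx. Rbl1 (p107), a pocket protein that represses E2F targets, rose by 1.63 ± 0.25 with RNY1+/+ ProteinFx and 1.43 ± 0.33 with RNY1-/- ProteinFx, and was also a DEG with RNY1-/- EVFx (24.8 ± 2.82 against 13.6 ± 6.50 CPM with PBS).

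Of 31 p53 target genes, Cdkn1a among them, 8 rose and 3 fell of the 26 tested with RNY1+/+ EVFx, 5 and 3 of 26 with RNY1-/- EVFx, 2 and 5 of 27 with RNY1+/+ ProteinFx, and 4 and 3 of 27 with RNY1-/- ProteinFx, beside the same shares of all genes. The death receptor Fas rose by 2.91 ± 0.13 with RNY1+/+ EVFx and 3.09 ± 0.13 with RNY1-/- EVFx, whereas Sesn1 (sestrin) fell by 2.57 ± 0.14 and 2.21 ± 0.13 on the log2 scale. Fas and Sesn1 were DEGs in the same directions with both ProteinFx fractions. Gadd45a, a growth arrest gene, fell by 2.00 ± 0.18 with RNY1+/+ ProteinFx, and was also a DEG with RNY1+/+ EVFx and RNY1-/- ProteinFx (79.1 ± 7.07 and 120 ± 22.7 against 264 ± 50 CPM with PBS). The list thus held rises and falls in every comparison with PBS. Between the donor genotypes, Psrc1 (1.06 ± 0.20, adjusted p = 0.00800) and Trp53inp1 (1.04 ± 0.20, 0.00797) were higher with RNY1-/- than with RNY1+/+ ProteinFx, and Dcxr was lower with RNY1-/- than with RNY1+/+ EVFx (-1.32 ± 0.25, 0.00101), though not a DEG with length and GC trends removed (-0.76).

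Markers of other cells moved with the groups as well. Of 12 neutrophil markers 4 had a mean of at least 3 CPM, S100a8 (a subunit of calprotectin, 152 CPM) the most abundant, and Ly6g, Elane and Mpo were near 0. Their summed level was 352, 328, 365 and 339 CPM with PBS, 175, 169, 221 and 156 with RNY1+/+ EVFx, 279, 198, 254 and 242 with RNY1-/- EVFx, 293, 350, 326 and 230 with RNY1+/+ ProteinFx, and 402, 376, 354 and 273 with RNY1-/- ProteinFx. The EVFx libraries, in which mitosis genes were low, thus lay below PBS here too. S100a8 and S100a9 (99.1 CPM) held most of the summed level, so it says little of the other neutrophil markers. Ngp, made by neutrophil precursors, was called lower in each comparison with PBS, and fell by 2.01 ± 0.35 on the log2 scale with RNY1+/+ ProteinFx. It was the 1 marker called of the 4 tested with each ProteinFx fraction, and with RNY1-/- ProteinFx its libraries overlapped PBS. With each EVFx fraction 3 of the 5 markers tested were called, all lower. The part of such cells in the falls of mitosis genes was not tested.

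Of 9 eosinophil and mast cell markers, Ccr3 (7.93 CPM) was the 1 at a mean of 3 CPM or more. The list's sums were 7.17, 7.57, 13.5 and 8.01 CPM with PBS, 1.42, 1.38, 0.801 and 1.33 with RNY1+/+ EVFx, 1.58, 1.64, 2.71 and 1.68 with RNY1-/- EVFx, 14.7, 15, 21.4 and 16.7 with RNY1+/+ ProteinFx, and 12.5, 12.3, 17.1 and 15.8 with RNY1-/- ProteinFx. Of 10 progenitor markers, Ly6a (23.0 CPM), which interferons also induce, was the 1 at that level, and Kit (0.312), Cd34 (0.00699) and Spink2 (0.00699) were near 0. The progenitor sums were 4.92, 3.01, 3.32 and 2.49 CPM with PBS, 14.2, 17.1, 13.3 and 12.2 with RNY1+/+ EVFx, 17.9, 18.2, 6.90 and 8.45 with RNY1-/- EVFx, 31.0, 39.7, 24.0 and 26.2 with RNY1+/+ ProteinFx, and 84.2, 74.9, 39.0 and 37.1 with RNY1-/- ProteinFx. RNY1-/- ProteinFx libraries 1 and 2 were again above 3 and 4, as for Cenpa and Cdkn1a.

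Of 11 lymphocyte markers 0 reached a mean of 3 CPM, with Cd4 the most abundant at 2.53, and their sums ran from 4.12 to 10.7 CPM with PBS, 3.50 to 5.88 with RNY1+/+ EVFx, 2.36 to 4.32 with RNY1-/- EVFx, 1.91 to 3.25 with RNY1+/+ ProteinFx and 2.07 to 8.25 with RNY1-/- ProteinFx. Dendritic cell markers (0 of 6 at that level; Ccr7 the most abundant at 0.643) summed to at most 3.09 CPM in a library. Of 13 stromal and epithelial markers 5 reached 3 CPM, Col1a2 (12.6 CPM) the most abundant, and the sums lay between 26.2 and 62.5 CPM over the 20 libraries. Among macrophage markers, Mrc1, the mannose receptor, fell by 3.52 ± 0.18 with RNY1+/+ EVFx and 2.74 ± 0.18 with RNY1-/- EVFx, and Adgre1 (F4/80) rose by 1.86 ± 0.11 and 2.14 ± 0.12 with the same fractions and by 1.96 ± 0.13 and 1.57 ± 0.15 with RNY1+/+ and RNY1-/- ProteinFx.

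Promoter windows of RefSeq (build GRCm38.p6, 250 bases before to 50 after a start) were matched to members by symbol. Windows were found for 38 of 48 members, 42 windows in all, and not for Aurkb, Kif20a, Tpx2, Ccna2, Ccne2, Ccnd1, Ccnd2, Mcm4, Gins2 and Cdkn1c. Each was searched on both strands for the cell cycle homology region (CHR; TTTGAA or TTCGAA), which mitosis genes are known to carry, for E2F words (TTCCCGC and TTGGCGC, with TTCGCGC and TTGCCGC) and for CCAAT. CHR words lay in 21 windows (50%), against 19.2% of the 32851 mouse windows of the same length. E2F words lay in 13 (31.0%, against 9.57%), and CCAAT in 32 (76.2%, against 37.4%). CHR words were in 16 of 20 mitosis windows and 3 of 13 replication windows, whereas E2F words were in 1 of 20 mitosis and 9 of 13 replication windows. The matches are not independent: an E2F and a CCAAT match share bases in 2 member windows, since TTGGCGC begins as ATTGG ends, which is CCAAT on the other strand, and a CHR match shares bases with another in 1.

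The stretches below belong to the members with the largest falls against PBS that hold a CHR or E2F word, and show what those promoters carry. Capitals mark the words searched, CCAAT included, and each line reads 5′ to 3′ along the gene's strand. The stretch of Cenpa is chr5:30666856-30666915 (plus strand), of Kif23 chr9:61946770-61946829 (minus), of Kif11 chr19:37376323-37376382 (plus), of Rrm2 chr12:24708004-24708063 (plus), of Mcm5 chr8:75109327-75109386 (plus) and of Cenpf chr1:189688057-189688116 (minus). Reads were aligned by the submitters to GRCm39, so these positions are those of the RefSeq table alone.

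Cenpa: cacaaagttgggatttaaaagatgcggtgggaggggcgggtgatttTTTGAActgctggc

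Kif23: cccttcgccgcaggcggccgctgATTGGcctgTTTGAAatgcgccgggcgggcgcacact

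Kif11: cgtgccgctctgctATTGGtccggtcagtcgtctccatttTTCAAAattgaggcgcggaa

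Rrm2: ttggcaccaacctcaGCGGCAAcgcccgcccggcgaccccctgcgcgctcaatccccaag

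Mcm5: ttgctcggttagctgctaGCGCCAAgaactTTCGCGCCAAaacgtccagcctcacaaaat

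Cenpf: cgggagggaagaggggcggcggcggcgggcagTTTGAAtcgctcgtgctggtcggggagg

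A CHR word is present in the lines of Cenpa, Kif23, Kif11 and Cenpf, and an E2F word in those of Rrm2 and Mcm5, where 2 of the E2F words overlap in Mcm5. A match is a description of letters and not evidence of binding. The exons of Mcm7 overlap the microRNA genes Mir25 and Mir93, and those of Top2a overlap Gm23451, on the same strand, with a mean of 0.00501, 0 and 0.00616 CPM.

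The limits of these data are several. Each group has 4 libraries of unknown origin, from a single batch, and the same PBS libraries serve all 4 comparisons with PBS. Treated and PBS cells differ by airway fluid as a whole, and no fraction of fluid from mice without inflammation was deposited here. EVFx and ProteinFx were dosed in different units, so a difference between them cannot be told apart from dose. RNA level is not a measure of division: cell numbers, DNA content and protein were not measured. Several mitosis genes lie at a few CPM, where a library holds few counts. Reads are from 3′ ends, so transcript forms that differ elsewhere are not told apart.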

How the data were processed

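RNA of 20 libraries of bone marrow-derived macrophages, 4 in each of 5 treatment groups, was measured by 3′-end sequencing with unique molecular identifiers. The authors deposited expected counts per gene, in which reads that map to several places count as fractions and 26 of the listed genes have such fractions in some library. They were made with FastQC 0.12.1, fastp 0.24.0, STAR 2.7.11, SAMtools 1.22.1, UMIcollapse, featureCounts of Subread 2.1.1 and MultiQC 1.32 on GRCm39. The deposited table also gives CPM, scaled by the authors to each library's total, and the levels printed are these values. Fold changes come from the counts.

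Counts were rounded and tested with edgeR 4.0.16 (quasi-likelihood, TMM scaling) in R 4.3.3, with the libraries of the 2 groups compared in each fit, or the 16 airway fluid libraries for the interaction. A gene was tested if filterByExpr kept it and its level, averaged over the fitted libraries, reached 3 CPM. Adjusted p is Benjamini-Hochberg over all genes tested, SE is the log2 fold change over the root of its F statistic, and DEGs have an adjusted p under 0.05 and a log2 fold change beyond 1 either way. The tests were tested on simulated data. Tables and plots were made with Python 3.11.15, pandas 2.3.3, numpy 2.4.6, scipy 1.17.1 and matplotlib 3.10.9.

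Members are listed genes whose average in all 20 libraries reached 1 CPM. Members and gene lists (other mitosis, other replication, cycle control and p53 target genes, and markers of macrophages, neutrophils, eosinophils and mast cells, lymphocytes, dendritic cells, progenitors, and stroma and epithelium) were chosen with earlier results of these data known. Values in every library are given for the 3 members of highest mean CPM in each role, all CDK inhibitors, D-type and E-type cyclins, and the called members with the largest rise and fall in each comparison. From each list, up to 3 called genes with the largest change in a comparison were eligible to be named. Other members were picked after their values were seen.

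Alternatives were DESeq2 1.42.0, library totals in place of TMM, filterByExpr alone, no filter beyond a count in 1 library, no fold limit, a single fit over the 20 libraries, counts thinned to the smallest library, the replicate number as a block, removal of trends with transcript length and GC content, both together, and leaving out each library or a pair of RNY1-/- ProteinFx libraries. Length and GC content were those of the longest annotated transcript of each gene, not of the 3′ ends sequenced. Library totals ran from 2510005 to 8277366 counts, so 3 counts, the floor used, are near 1 CPM in the smallest. No library was left out of the results.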

Additional observations from a re-analysis of the deposited data

Results flagged for a closer look

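In each of 100 groups of 4 libraries, the gap between the most extreme library and its nearest neighbour was compared with the range of the group, and in 8 groups a library stood apart. Chance flags about 1 in 20 groups. PBS library 3 had a summed level of 2333 CPM over all members, 310 CPM over mitosis genes, and 9.15 CPM of Ccne2, each above the other PBS libraries. PBS library 1 had 6.56 CPM of Ccne1. RNY1+/+ ProteinFx library 3 had 45.2 CPM of Ccnd2 and a replication sum of 795 CPM, both the highest of its group. RNY1-/- ProteinFx library 3 had 4.78 CPM of Ccne2, and RNY1+/+ EVFx library 3 had the lowest sum over all members of its group, 1085 CPM. Library 3 thus made up 7 of the 8, in several groups, and the cause was not tested.

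The effect of donor genotype on Cenpa differed between ProteinFx and EVFx by 1.54 on the log2 scale, in a test of the interaction.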

How the results depend on the processing

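Of 176 alternative counts of members called, 153 were within 1.5 times the reported count, 21 were not, and 2 changed direction. Of 521 alternative values for 29 changes of named genes, 505 kept the call, 16 lost it and 0 reversed; 22 changes kept it in every alternative run.

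Without the fold limit the counts were 29 with RNY1-/- EVFx against PBS, 8 and 2 for donor genotype in EVFx and ProteinFx, 22 and 12 for ProteinFx against EVFx of RNY1+/+ and RNY1-/- fluid, and 5 for the interaction (2 positive, 3 negative, a reversed balance). More genes pass a looser rule by its construction. With no filter on low counts, which admits more members, they were 29 with RNY1-/- EVFx against PBS, 1 for genotype in EVFx, 12 and 9 for ProteinFx against EVFx of RNY1+/+ and RNY1-/- fluid, and 2 for the interaction. Genotype in EVFx gave 1 with filterByExpr alone, 1 in a single fit over all libraries and 1 with thinned counts. Genotype in ProteinFx gave 2 with thinned counts and 2 without RNY1-/- ProteinFx libraries 3 and 4, and library totals gave 3 for the interaction. The cause was not tested for these.

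Leaving out 1 library at a time gave 19 to 25 members with RNY1+/+ EVFx against PBS, 15 to 20 with RNY1-/- EVFx, 13 to 20 with RNY1+/+ ProteinFx and 13 to 18 with RNY1-/- ProteinFx. It gave 0 to 0 and 1 to 2 for genotype in EVFx and ProteinFx, 5 to 8 and 5 to 6 for ProteinFx against EVFx of RNY1+/+ and RNY1-/- fluid, and 1 to 3 for the interaction. Without RNY1+/+ ProteinFx library 1 the genotype count in ProteinFx was 2 and the interaction gave 3 (1 positive, 2 negative). The interaction gave 2 without RNY1+/+ EVFx library 1 or 3 or RNY1-/- ProteinFx library 4, and 3 without RNY1-/- ProteinFx library 3.

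With the replicate number as a block the counts were 21, 17, 16 and 16 against PBS (RNY1+/+ EVFx, RNY1-/- EVFx, RNY1+/+ ProteinFx, RNY1-/- ProteinFx), 0 and 1 for genotype in EVFx and ProteinFx, 7 and 5 for ProteinFx against EVFx of RNY1+/+ and RNY1-/- fluid, and 1 for the interaction; Pcna with RNY1+/+ EVFx was at -0.97. Nothing states that equal numbers are paired: 21 of 40 same-numbered pairs correlated above 0.1 (-0.38 to 0.628 over 10638 genes; median 0.113, against -0.0426 for other pairs), and 10 of 20 libraries correlated best with a library of their own number.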
